A study of Mus musculus with 48 samples.

Results

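Pancreatic cells that had switched on a green reporter at the Neurog3 locus but carried no functional Neurog3 were compared with pancreatic progenitors of the same embryonic day, to ask how far the null cells remained like progenitors. The comparison takes 7 of the 48 arrays of the series, 4 of Neurog3-null cells and 3 of E15.5 progenitors, chosen by the cell type and stage that the labels give. The other arrays cover 12 wild-type populations of the developing and adult mouse pancreas in all when the progenitors are counted among them. Each array is 1 Affymetrix mouse expression array hybridized with amplified RNA from sorted cells, and its values are RMA levels on a log2 scale, so that a difference of 1 is 2-fold.

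Both groups were labelled E15.5. The sample titles write the day of the null cells differently, and the stage label was used. The progenitors came from pooled pancreata of Neurog3-eGFP transgenic embryos and were sorted as eGFP-negative cells with low CD49f and with CD133 and CD24 on their surface. The null cells were eGFP-positive cells collected in a similar way from embryos with 2 copies of a Neurog3 eGFP knock-in allele, which is another mouse line. The labels write the genotype as Ngn3-null for replicates 1 and 2 and as Neurog3-null for replicates 3 and 4. Wild-type E15.5 endocrine progenitors, sorted as eGFP-positive cells from the transgenic line and used here as a reference, also made Neurog3. Genotype, reporter line and eGFP gate therefore changed together between null cells and progenitors, and their parts cannot be told apart. The reporter protein outlasts Neurog3, so eGFP alone also labels descendants of cells that had switched it on, and the methods add surface markers to narrow the sort. Nothing in the labels says that the arrays of a group came from separate litters, so the tests measure the spread between these arrays.

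As background, Neurog3 is the transcription factor that commits cells of the embryonic pancreatic epithelium to the endocrine lineage. It is made for a short time in single epithelial cells, which then stop dividing, leave the epithelium and turn on factors such as Neurod1, Insm1, Pax4, Nkx2-2 and Isl1 on the way to hormone-producing islet cells. Notch signalling, read out by Hes1, holds Neurog3 down in the neighbouring cells, where Sox9 keeps the progenitor state. Mice without Neurog3 form no islet endocrine cells.

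Across the 32043 probes tested, 5785 passed an adjusted p under 0.05 with at least a 2-fold difference, here termed called, which is 18.1% of those tested. Of these, 2444 were higher in the null cells and 3341 lower, by limma with Benjamini-Hochberg adjustment, fitted to the means of the 13 populations. Counted by gene, with the brightest probe standing for each, 17.6% of 14484 genes were called. These were 1418 higher (9.79%) and 1127 lower (7.78%). All 4 null arrays lay above all 3 progenitor arrays for 27.1% of genes and below them for 21.5%. All 4 null arrays also read high for markers of leukocytes, and liver genes differed widely among them, as given further on. Every count of list members called by limma below is read against these shares. Counts at an unadjusted p under 0.05, and list counts by the methods' t-test, have no share over all genes here. They give the direction only. In bulk RNA, a change in the number of cells of a type and a change in RNA per cell cannot be told apart.

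Among the 12 wild-type populations, the E15.5 progenitors differed from the null cells at the fewest probes. The next were E15.5 acinar cells with 7033 probes called and E11.5 Sox9+ progenitors with 8157. Endocrine progenitors differed at 9963 probes, and the 8 other beta, alpha and duct populations at 9628 to 11708. By way of scale, endocrine progenitors and E15.5 progenitors differed at 6156 probes, against the 5785 between null cells and the same progenitors. E15.5 acinar cells and E15.5 progenitors differed at 3175.

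**Figure D1:**
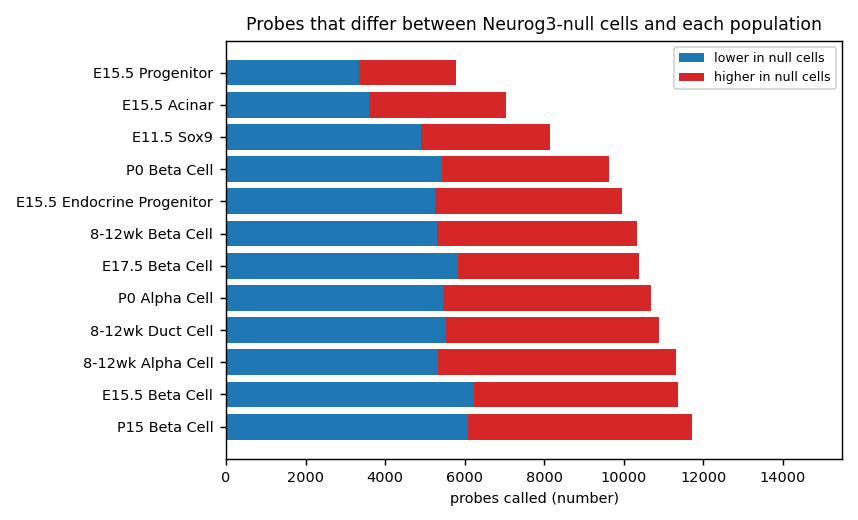
Number of probes called between Neurog3-null cells and each of the 12 wild-type populations, with probes lower in null cells in blue and higher in red. The E15.5 progenitors have the shortest bar, 5785 probes, and P15 beta cells the longest, 11708.

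The level profiles were compared by their distance and by their correlation. The mean absolute difference per probe to the null arrays was lowest for progenitors, at 0.696, against 0.753 for acinar cells and 0.934 for endocrine progenitors. After centring each probe on its mean over all arrays, the null arrays had a mean Pearson correlation with the other profiles of 0.42 for acinar cells, 0.40 for progenitors, 0.09 for E11.5 Sox9+ progenitors and -0.23 for endocrine progenitors. The 4 null arrays ranged from 0.35 to 0.46 against the progenitors and from 0.33 to 0.50 against acinar cells, so the ranges for progenitors and acinar cells overlap. These correlations are over probes, which are not independent, and describe 4 arrays. Without the probes that follow leukocyte markers (defined further on) they became 0.50 for both.

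The targeted gene, Neurog3, was lower in null cells than in progenitors at both of its 2 probes, clearly at one and by little over 2-fold at the other. At the first the progenitor levels were 8.69, 8.55 and 9.34 and the null levels 5.09, 5.68, 5.59 and 5.56. Every null array lay below every progenitor array, with a difference of -3.38 ± 0.26 (SE from the fit, limma adjusted p = 4.16e-13). At the second the progenitors stood at 11.64, 11.43 and 11.98 and the null cells at 10.97, 10.29, 10.70 and 10.32. The groups again did not overlap, with a difference of -1.11 ± 0.35 (limma adjusted p = 0.0103), and leaving out progenitor replicate 3 took it below the 2-fold limit. Endocrine progenitors averaged 11.56 at the first probe and 13.40 at the second. E11.5 Sox9+ progenitors averaged 6.88 and 9.29, so the null cells lay below them at the first probe and above them at the second. The eGFP-negative progenitors thus had a Neurog3 signal between the other groups at both probes. Where the probes lie relative to the sequence removed in the knock-in allele is not given in the sources used here, so the second probe does not test the allele.

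The surface markers used in the sort served only as a check of the gate. Prom1, which encodes CD133, averaged 12.20 ± 0.12 (SD, n = 3) in progenitors and 12.29 ± 0.13 (SD, n = 4) in null cells. Itga6, for CD49f, averaged 12.56 and 12.29, and Cd24a 13.83 and 13.78. None of the 3 was called.

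**Figure D2:**
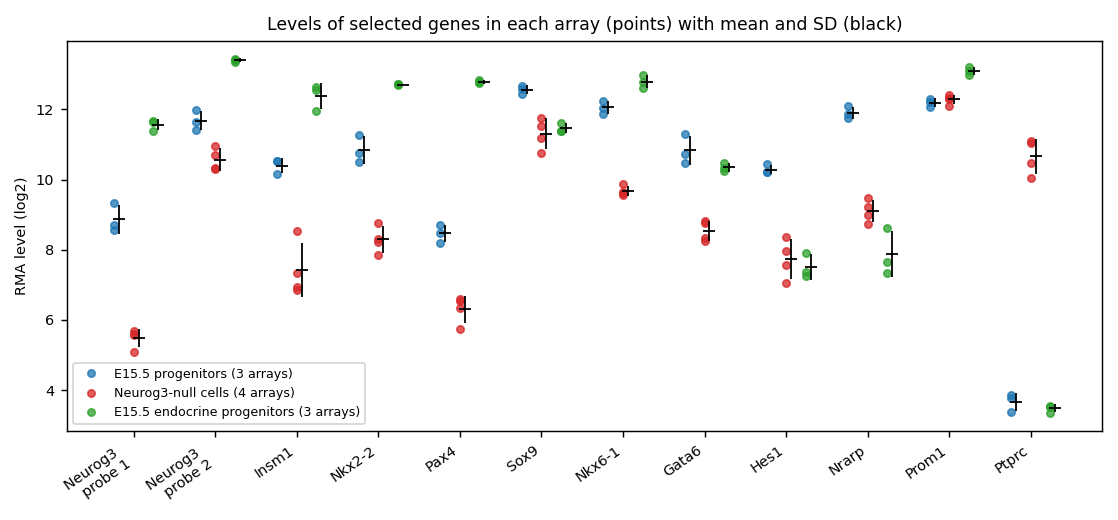
RMA level (log2) of 11 genes in each array of E15.5 progenitors (blue), Neurog3-null cells (red) and E15.5 endocrine progenitors (green), with mean and SD in black. Neurog3, Insm1, Nkx2-2, Pax4, Nkx6-1, Gata6, Hes1 and Nrarp lie lower in null cells than in progenitors, Prom1 averages 12.20 and 12.29, and Ptprc reads 10.04 to 11.09 in null cells against 3.37 to 3.85 in progenitors.

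Endocrine transcription factors were lower in the null cells than in the progenitors, although the progenitors had been sorted as reporter-negative. Of the 19 measured, 8 were called lower and none higher, with a median difference of -0.81 (0.08 over all genes tested). At an unadjusted p under 0.05, 10 were lower and 0 higher, and the methods' t-test called 6 lower and 0 higher. The 8 were Insm1, Myt1, Nkx2-2, Neurod1, Isl1, Pax4, Neurod2 and Pax6. In endocrine progenitors 16 of the 19 were higher than in the same progenitors, with a median of 4.20, where 10.7% of all genes were higher. In null cells 16 were lower than in endocrine progenitors, where 14.1% of all genes were. These comparisons share the progenitor, null or endocrine arrays with each other.

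Insm1, a zinc finger factor needed for endocrine differentiation, read 10.52, 10.14 and 10.53 in the progenitors and 8.54, 6.95, 7.34 and 6.86 in the null cells. All null arrays lay below the progenitors, replicate 1 nearest to them, and the difference was -2.97 ± 0.26 (limma adjusted p = 8.06e-12). Nkx2-2, a homeodomain factor of beta and other islet cells, read 10.75, 10.50 and 11.27 in the progenitors and 8.77, 8.32, 8.23 and 7.86 in the null cells. Its groups were also apart, by -2.54 ± 0.31 (limma adjusted p = 3.20e-08). Pax4, which favours the beta and delta fates, read 8.20, 8.48 and 8.71 against 5.74, 6.59, 6.53 and 6.35, a difference of -2.16 ± 0.22 (limma adjusted p = 2.61e-10). Both lay far under the endocrine progenitors, at 12.71 for Nkx2-2 and 12.79 for Pax4.

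Myt1, a zinc finger factor that acts with Neurog3, fell by 2.66, from 9.07, 10.11 and 8.91 in progenitors to 7.49, 6.27, 7.08 and 5.99. Neurod1, a helix-loop-helix factor downstream of Neurog3, fell by 2.30, from 6.34, 7.98 and 6.90 to 5.16, 5.16, 4.56 and 4.21. Its null arrays and progenitor replicate 1 lay below a linear level of 100, which is 6.644 on the log2 scale. A filter of 100 in 3 of the 7 arrays leaves Neurod1 out, and with it 5 endocrine factors were lower. For Isl1, a LIM homeodomain factor, the progenitors themselves were spread, at 6.80, 9.37 and 7.69, and the null arrays at 6.51, 4.83, 6.32 and 5.05 lay only just below the lowest of them. The null levels of Isl1 were also all below 6.644. Neurod2, a relative of Neurod1 (-1.52), and Pax6, a homeodomain factor of islet cells (-1.08), were lower by less. Every tested probe of Insm1, Neurod1, Pax4 and Nkx2-2 was called lower, though only 2 of these genes have more than 1 tested probe. The remaining 4 had at least 1 probe that was not called, and when the median of a gene's probes stood for the gene 4 factors were lower.

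The other factors of the list did not pass. Runx1t1, a corepressor, read 9.03, 9.94 and 7.28 in progenitors and 8.24, 8.78, 9.14 and 9.55 in null cells, a difference of 0.18 ± 0.38, while it averaged 12.95 in endocrine progenitors. Its null arrays lay inside the range of the progenitors. Snai2, a factor of epithelial delamination, differed by 0.17 ± 0.28, Prdm16 by 0.25 ± 0.29 and Bcl11a by 0.02 ± 0.30. Prdm16 and Bcl11a averaged 10.68 and 10.03 in endocrine progenitors, near the means of both other groups. Rfx3 (-0.95) and Tox3 (-0.81) lay below the progenitors in all null arrays without reaching 2-fold. Etv1, Rfx6, Mafa and Fev were not analysed here.

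**Figure D3:**
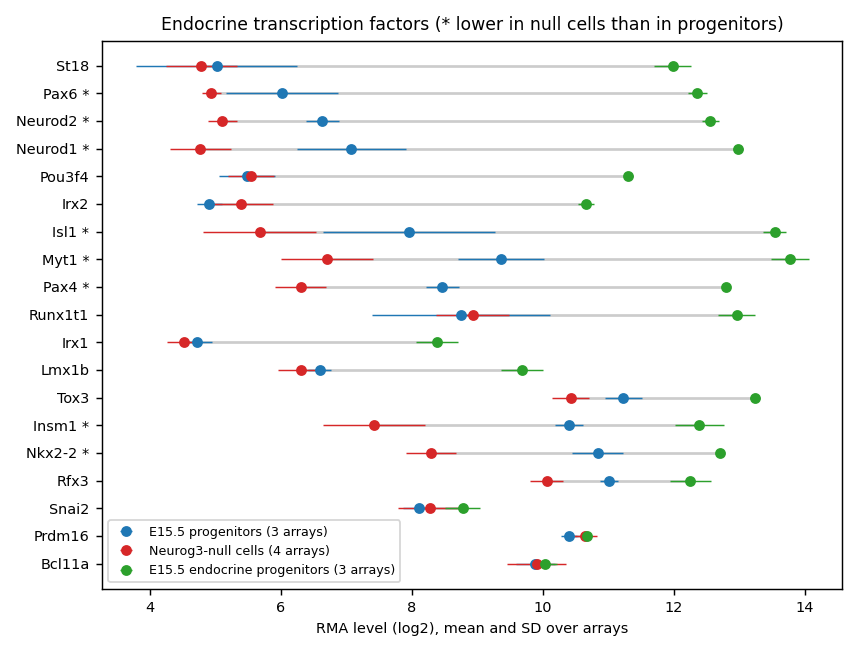
Mean RMA level (log2) with SD of the 19 endocrine transcription factors in E15.5 progenitors (blue), Neurog3-null cells (red) and E15.5 endocrine progenitors (green), ordered by the difference between endocrine progenitors and progenitors. The 8 starred factors were called lower in null cells than in progenitors, and for these the progenitor mean lies between the null mean and the endocrine progenitor mean.

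The 250 bases before the transcription start of 4 of these 8 genes are shown to give the promoter sequence behind the lowered factors. They are the 4 with exactly 1 promoter in the RefSeq table of GRCm38.p6, and 6 of the 8 have at least 1. Capitals mark the E-box CANNTG, the class of site that helix-loop-helix factors such as Neurog3 and Neurod1 bind, which reads the same class on both strands. Each is written 5′ to 3′ on the strand of the gene, and all 4 genes lie on the minus strand.
Nkx2-2, chr2:147186403-147186652: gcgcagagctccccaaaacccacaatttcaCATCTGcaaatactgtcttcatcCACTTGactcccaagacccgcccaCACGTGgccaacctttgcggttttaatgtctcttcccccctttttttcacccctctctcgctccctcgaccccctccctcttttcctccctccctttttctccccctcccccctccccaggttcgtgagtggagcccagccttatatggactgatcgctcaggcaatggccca
Neurod1, chr2:79456637-79456886: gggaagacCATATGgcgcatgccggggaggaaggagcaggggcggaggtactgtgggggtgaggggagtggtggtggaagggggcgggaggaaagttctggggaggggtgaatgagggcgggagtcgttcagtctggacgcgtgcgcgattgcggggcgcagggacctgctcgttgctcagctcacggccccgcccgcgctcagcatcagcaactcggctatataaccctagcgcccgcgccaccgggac
Isl1, chr13:116309689-116309938: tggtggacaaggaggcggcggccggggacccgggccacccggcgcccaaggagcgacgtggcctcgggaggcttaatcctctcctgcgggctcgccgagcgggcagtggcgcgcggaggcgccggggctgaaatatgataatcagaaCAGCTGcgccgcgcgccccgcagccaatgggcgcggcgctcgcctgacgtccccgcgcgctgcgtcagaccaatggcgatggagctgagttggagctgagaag
Neurod2, chr11:98329646-98329895: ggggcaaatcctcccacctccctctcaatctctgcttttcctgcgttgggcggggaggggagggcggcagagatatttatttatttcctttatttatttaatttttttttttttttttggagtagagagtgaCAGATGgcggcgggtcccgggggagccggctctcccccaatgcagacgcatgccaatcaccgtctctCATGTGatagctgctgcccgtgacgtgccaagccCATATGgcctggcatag
Nkx2-2 and Neurod2 hold 3 E-boxes each, and Neurod1 and Isl1 hold 1 each. Of 32851 promoters in the table, 66.2% hold at least 1 in the same window, so the presence of a match says little about a single gene.

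Hormone and granule genes were higher in endocrine progenitors than in progenitors or null cells. Of 21 measured, 1 was higher in null cells and none lower (limma, by the brightest probe), with a median of -0.20, whereas all 21 were higher in endocrine progenitors than in progenitors (median 5.33) and all 21 were lower in null cells than in endocrine progenitors. At an unadjusted p under 0.05, 2 were higher and 3 lower, and the methods' t-test called 0. The 1 called by limma was Resp18, a granule protein of neuroendocrine cells, at 4.59, 5.23 and 5.24 in progenitors and 6.30, 5.94, 6.51 and 5.49 in null cells (1.04 ± 0.35, limma adjusted p = 0.0146). It lost the call without progenitor replicate 1 or without null replicate 1 or 3. Resp18 lay in all 7 arrays below a linear level of 100, which is 6.644 on the log2 scale. With a filter of 100 in 3 of the 7 arrays, 0 genes of the list were higher. Gcg, the precursor of glucagon, read 9.24 in null replicate 1 and 6.64, 5.31 and 5.97 in the others, against 7.99, 7.56 and 9.30 in progenitors, and was not called (-1.49 ± 0.62). The hormone Ghrl, at 7.44, 10.18 and 8.06 in the progenitors, was 7.38 to 7.58 in every null array. Ins2 differed by -0.38, Chga, a granule core protein, by -0.11 and Pcsk1, a prohormone convertase, by 0.11.

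The genes of vesicle docking and exocytosis moved both ways, with 5 of 16 higher and 2 lower and a median of -0.35. In endocrine progenitors 14 of the 16 were higher than in progenitors (median 1.96), where 10.7% of all genes were. Null cells had 0 of the 16 higher and 10 lower than endocrine progenitors (18.7% and 14.1% of all genes). Syt13, an atypical synaptotagmin, read 9.31, 9.50 and 9.78 in progenitors and 6.85, 6.52, 6.32 and 6.65 in null cells, a difference of -2.95 by its brightest probe, and Cadps, a priming factor of dense-core vesicles, fell by 1.11. Cplx2, a complexin, was higher by 1.75, Sv2a by 1.72, Rab3a by 1.31, Syt7 by 1.27 and Rab3b by 1.09. All 5 rose without any overlap between the groups. For Cplx2 the progenitor arrays read 11.56, 11.29 and 10.08 and the null arrays 12.96, 12.88, 12.61 and 12.46.

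Progenitor transcription factors did not move as a block. Of 16 measured, 5 were lower, 1 was higher and 10 were not called, with a median of -0.08. Sox9 read 12.67, 12.59 and 12.43 in progenitors and 11.76, 10.75, 11.52 and 11.18 in null cells. The groups were apart by -1.26 ± 0.28 (limma adjusted p = 0.000356), and the null cells were near the mean of the endocrine progenitors, 11.47 (null minus endocrine progenitors -0.17 ± 0.28). At the other, dimmer Sox9 probe the null cells were lower than both, with a difference of -3.11 from progenitors and of -1.12 ± 0.41 from endocrine progenitors (limma adjusted p = 0.0182).

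Nkx6-1, which marks the trunk epithelium and later beta cells, read 12.04, 11.87 and 12.25 in progenitors and 9.87, 9.57, 9.63 and 9.65 in null cells. That is a difference of -2.38 ± 0.19 (limma adjusted p = 1.05e-12), with the null arrays close together and near the acinar mean of 10.00. Gata6, a zinc finger factor of early pancreas formation, fell by 2.30, from 10.74, 10.47 and 11.29 to 8.81, 8.33, 8.75 and 8.24. Onecut1, an activator of Neurog3, fell by 1.48, from 11.24 ± 0.22 (SD, n = 3) to 9.91, 9.70, 9.89 and 9.56. In endocrine progenitors Onecut1 was lower still, at 8.04, while Nkx6-1 and Gata6 stood at 12.79 and 10.35. Prox1 fell by 1.09, a call that was lost without null replicate 2. All tested probes of these 5 genes were called lower, and 4 of the genes have more than 1 tested probe.

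Gata4, which settles in the acinar tips, was the 1 factor higher, at 9.69, 10.86, 10.86 and 11.32 in null cells against 9.73, 10.58 and 8.67 in progenitors. Those groups overlap, and the call (1.03 ± 0.30, limma adjusted p = 0.00660) was lost without progenitor replicate 3 or without null replicate 2, 3 or 4. Pdx1, required for the pancreas to form, read 11.02, 10.98 and 11.22 in progenitors and 10.36, 10.04, 10.58 and 10.68 in null cells (-0.66 ± 0.20), apart but under 2-fold. Hnf4a (0.96) and Nkx6-2 (0.97) lay above the progenitors in every null array, also under 2-fold. Foxa2 (-0.27), Foxa3 (0.55), Hhex (-0.61), Glis3 (0.17), Onecut2 (0.37), Foxa1 (0.19) and Mnx1 (0.12) were not called.

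Of 23 Notch pathway genes measured, 8 were called lower and 1 higher, with a median of -0.25. At an unadjusted p under 0.05, with no limit on size, 9 were lower and 6 higher. Nrarp, a feedback target of Notch, read 11.86, 11.76 and 12.09 in progenitors and 8.73, 9.47, 8.98 and 9.23 in null cells, a difference of -2.81. Hes1, the repressor of Neurog3, read 10.45, 10.21 and 10.20 against 7.56, 7.04, 8.36 and 7.97 (-2.55 ± 0.25, limma adjusted p = 1.06e-10). Both were also low in endocrine progenitors, at 7.88 for Nrarp and 7.51 for Hes1.

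Among ligands, Dll1 fell by 1.95, from 8.72, 8.51 and 8.96 to 6.81, 6.41, 6.49 and 7.42, and Jag1 fell by 1.19. Dll1 averaged 8.51 in endocrine progenitors, where Jag1 averaged 9.34. The receptor Notch3 fell by 1.12. The target Hey2 fell by 1.93 and Hey1 fell by 1.92. Numbl, a Numb relative that restrains Notch, fell by 1.53. Lfng, which modifies Notch receptors, was the 1 gene higher, at 9.42, 9.82 and 8.64 in progenitors and 11.06, 10.68, 11.08 and 11.04 in null cells (1.67 ± 0.33). Rbpj, the DNA-binding partner of Notch, was 0.95 above the progenitors, with no overlap and under 2-fold.

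RNA of genes of FGF and EGF receptor signalling was lower in 4 of 14 cases, with none higher (limma, 8 lower and 0 higher at an unadjusted p under 0.05). The activity of the pathway was not measured. Spry1 (-2.00) and Spry2 (-1.41) are feedback inhibitors of the pathway, and Erbb2 (-1.64) and Fgfr1 (-1.06) are receptors. For Spry1 the progenitors read 8.48, 8.27 and 9.77 and the null cells 7.08, 7.07, 6.83 and 6.37. Fgfr1 was not called without null replicate 1.

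Cell division genes lay near the progenitors and above the endocrine progenitors. Of 36 measured, 5 were lower than in progenitors and none higher (limma), with a median of -0.22. At an unadjusted p under 0.05, 12 were lower and 1 higher, and the methods' t-test called 5 lower and 0 higher. In endocrine progenitors 32 of the 36 were lower than in progenitors (median -1.96, against 11.7% of all genes lower), and 29 were higher in null cells than in endocrine progenitors (18.7% of all genes). Mki67, a marker of cycling cells, differed from the progenitors by 0.24 and Top2a by -0.46. The 5 that were lower were Kif20a (-1.63), Kif11 (-1.54), Ube2c (-1.30), Aurkb (-1.20) and Cdk1 (-1.03), all with a function in mitosis. For Cdk1 the progenitors read 12.16, 12.08 and 12.50 and the null cells 11.08, 11.11, 11.38 and 11.30, against a mean of 9.76 in endocrine progenitors. With null replicates 3 and 4 alone, and with weighted arrays, 2 of the 36 were lower.

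Genes of cell cycle exit were lower in null cells in 4 of 14 cases, with a median of -0.82. Gadd45a, a growth arrest gene, had the widest gap, with 10.89, 10.45 and 11.32 in progenitors and 7.29, 6.27, 7.67 and 7.34 in null cells. Its difference was -3.75 ± 0.52 (limma adjusted p = 3.64e-07), and endocrine progenitors averaged 13.35. Btg2, an antiproliferative gene, fell by 1.72, and the cyclin-dependent kinase inhibitors Cdkn1b (-1.67) and Cdkn1c (-1.22) were lower. Cdkn1a, another inhibitor, read 10.71, 10.71 and 10.66 in progenitors and 11.51, 11.67, 11.25 and 11.27 in null cells, apart but under 2-fold (0.73 ± 0.18).

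Acinar enzymes had a positive median, and nearly all missed the test. Of 20, 1 was higher, Amy1, and none was lower (limma, 0 lower also at an unadjusted p under 0.05), with a median of 0.75. The progenitors differed among themselves, with a mean level of the list of 10.57, 11.53 and 9.68, and the null arrays, from 10.83 to 11.84, overlapped them. Pnliprp2, a pancreatic lipase, read 9.45, 10.67 and 7.64 in progenitors and 10.02, 11.08, 11.23 and 11.72 in null cells and was not called (1.76 ± 1.22). With weighted arrays 8 of the 20 were higher, and with only the 7 arrays fitted 5 were. Amy1 lost its call on leaving out any 1 of progenitor replicates 1 and 3 and null replicates 2, 3 and 4.

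Among 10 acinar and tip factors Bhlha15 and Gata4 were higher and Mycn and Myc lower. Bhlha15, which matures acinar cells, read 10.87, 11.58 and 9.70 in progenitors and 10.83, 12.35, 12.01 and 12.25 in null cells (1.14 ± 0.40), and lost its call without progenitor replicate 3 or null replicate 2 or 4. The growth regulators Mycn (-2.99, 1 of its 2 probes) and Myc (-2.23) were lower. Myc read 9.18, 9.46 and 9.37 in progenitors and 7.06, 6.26, 7.31 and 7.80 in null cells.

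Of 16 duct markers, 2 were higher and 2 lower. Car2, a carbonic anhydrase, read 9.45, 9.19 and 9.66 in progenitors and 10.41, 11.05, 11.97 and 11.24 in null cells (1.73 ± 0.46). It follows the leukocyte markers over the other arrays in the sense given further on, and without such probes 1 duct marker was higher. The water channel Aqp1 was higher by 1.03, a call lost when any of the 3 progenitor arrays or null replicates 1, 2 or 3 was left out. Slc4a4, a bicarbonate transporter, fell by 2.38, from 11.56, 11.14 and 11.55 to 9.49, 8.42, 9.25 and 8.98. Sox9, counted in this list too, was the other.

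Of 18 genes of epithelial adhesion and polarity, 2 were called higher and 2 lower, and at an unadjusted p under 0.05 there were 3 higher and 8 lower. In 10 of the 18 every null array lay below every progenitor array, where 21.5% of all genes did. With weighted arrays 4 were called lower. Prkci, a polarity kinase (-1.48), and the junction protein Ocln (-1.07) were lower, the latter not called without null replicate 2. The repressors of epithelial genes Zeb2 and Zeb1 were higher by 2.95 and 2.22. Zeb2 read 5.48, 6.09 and 5.28 in progenitors and 9.94, 7.70, 7.92 and 8.73 in null cells, highest in replicate 1, and Zeb1 averaged 9.15 in endocrine progenitors. Leukocyte markers and some endothelial and mesenchyme markers were also raised in the null arrays, as given further on. The part of such cells in the Zeb1 and Zeb2 levels was not tested. The adhesion molecule Epcam, at 13.16, 13.09 and 13.45 against 12.62, 12.37, 12.44 and 12.30, was lower by 0.80, under 2-fold.

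**Figure D4:**
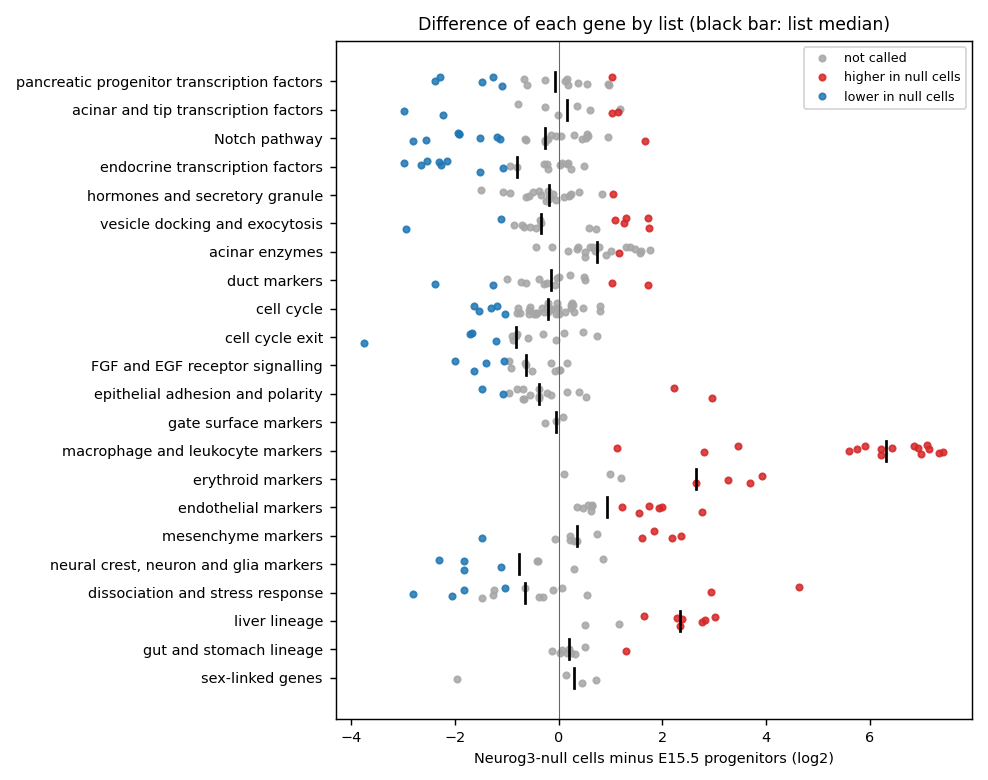
Difference (log2) between Neurog3-null cells and E15.5 progenitors for each measured gene of 22 lists, with genes called higher in red, called lower in blue and not called in grey, and the median of each list as a black bar. The macrophage and leukocyte list stands to the right with a median of 6.32, and the endocrine factors have a median of -0.81.

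The most raised genes of the comparison were those of macrophages. All 16 measured macrophage and leukocyte markers were higher, with a median of 6.32. All 16 had every null array above every progenitor array, where 27.1% of all genes did. Ptprc, which encodes the pan-leukocyte protein CD45, read 3.37, 3.78 and 3.85 in progenitors and 11.09, 10.48, 10.04 and 11.03 in null cells, a difference of 6.99 ± 0.51 (limma adjusted p = 6.82e-14). CD45 and Ter119 are named in the methods as the means of keeping blood cells out of the sorts. Csf1r, the macrophage growth factor receptor, was higher by 7.42, the complement gene C1qb by 7.34 and the protease Ctss by 7.14.

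The mean level of the list was 12.28, 11.65, 11.39 and 11.86 in the null arrays, 5.65 to 6.23 in the progenitors and at most 6.20 in the endocrine progenitors. Levels of 11.35 to 12.53 occurred in adult duct cells and of 11.44 to 12.22 in adult beta cells. The 12 genes with the largest rise in the whole comparison were Lyz1, Csf1r, C1qb, AI662270, Ctss, Lyz2, Ms4a6b, Ptprc, Tgfbi, Laptm5, Ly86 and Tyrobp, most of them known from macrophages. All 12 followed the leukocyte markers, meaning that their correlation with the mean of the marker list exceeded 0.7 over the 41 arrays outside the comparison. For 7 of the 12 this is no separate observation, since Csf1r, C1qb, Ctss, Lyz2, Ptprc, Laptm5 and Tyrobp are on the marker list, and the other 5 are not. Of 893 such probes, 528 were higher in null cells and 27 lower. Among the 31150 others 1916 were higher and 3314 lower, so 78.4% of the raised probes did not follow these markers. The set is not specific to leukocytes, since it also holds the brightest probes of the duct markers Cftr, Car2, Pkhd1 and Dcdc2a. It holds those of the acinar enzymes Cela2a, Ctrl and Gp2 and of the lowered gene Fmo1 too. The counts therefore do not separate leukocyte RNA from other RNA. The part of leukocyte RNA in the other differences was not tested beyond these counts.

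Other lists of cell types outside the epithelium also held raised genes, less evenly. Of 7 erythroid markers 4 were higher, with Hemgn, an erythroid nuclear protein, at 4.03, 3.88 and 3.70 in progenitors and 6.54, 7.18, 9.34 and 8.09 in null cells. The others were Slc4a1 (3.69), Rhag (3.26) and Alas2 (2.64). Of 12 endothelial markers 6 were higher. Tek, an angiopoietin receptor, read 3.90, 4.91 and 4.11 in progenitors and 6.78, 6.68, 6.29 and 8.57 in null cells, and Cldn5, a junction protein, rose by 2.00, a call lost with the methods' t-test and when only the 7 arrays were fitted. The methods' t-test called 3 of the 12 and a filter of 100 in 3 of the 7 arrays left 2. Of 11 mesenchyme markers 4 were higher and Twist1 was lower (-1.47), with a median of 0.35. In endocrine progenitors 7 of the 11 were higher than in progenitors, where 10.7% of all genes were. Null cells had 0 of the 11 higher and 3 lower than endocrine progenitors (18.7% and 14.1% of all genes). Col1a1, a fibrillar collagen, read 7.26, 10.47 and 7.72 in progenitors, where replicate 2 stood apart, and 11.27, 10.22, 10.78 and 11.11 in null cells. The methods' t-test and the fit with the replicate number as a block each called 1 mesenchyme marker higher. Col1a1, Col1a2 and Col3a1 lost their calls in both. Col1a2 also lost its call without progenitor replicate 1, and Col3a1 without progenitor replicate 1 or 3 or null replicate 1, 3 or 4. Col6a1 rose by 2.18 with no overlap.

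Liver genes separated the null arrays from each other. Of 9 measured, 7 were called higher. Alb, for serum albumin, read 7.48, 10.98, 13.64 and 9.91 in null replicates 1 to 4 and 7.34 to 7.62 in progenitors, so replicate 1 lay at the progenitor level and replicate 3 far above it. Afp, for alpha-fetoprotein, read 9.81, 10.91, 13.27 and 10.52 against 8.85, 9.15 and 8.39, apart in every array (2.33 ± 0.41). The list mean was 7.30, 9.17, 12.21 and 8.63 in the null arrays and 7.07 to 7.34 in the progenitors. With null replicates 1 and 2 alone 1 of the 9 was higher, without replicate 3 there were 3, the methods' t-test called 0, and the fit with the replicate number as a block called 1. A fit to only the 7 arrays also called 1. Apoa1 lost its call on leaving out any 1 of the 3 progenitor arrays or null replicate 2 or 3, and Apoa2 without null replicate 3.

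**Figure D5:**
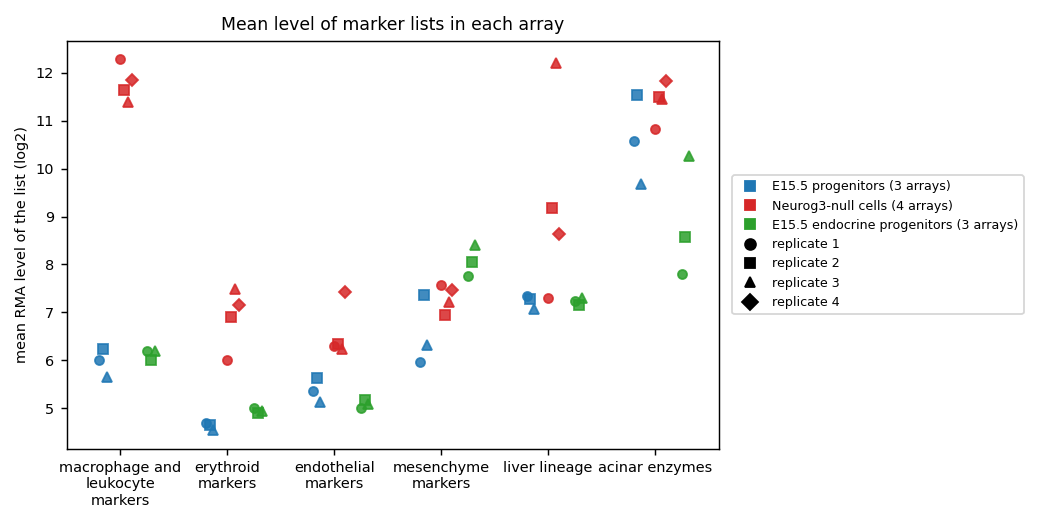
Mean RMA level (log2) of 6 marker lists in each array of E15.5 progenitors (blue), Neurog3-null cells (red) and E15.5 endocrine progenitors (green), with replicates by symbol. All null arrays lie at 11.39 or more for macrophage and leukocyte markers against at most 6.23 in progenitors, while liver genes range from 7.30 to 12.21 among the null arrays.

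Of 8 neural crest, neuron and glia markers, 4 were lower and none higher (limma). At an unadjusted p under 0.05, 4 were lower and 1 higher, and the methods' t-test called 3 lower and 0 higher. Sox10, of glia and neural crest, read 9.07, 9.02 and 9.57 in progenitors and 6.67, 7.61, 6.57 and 6.79 in null cells, a difference of -2.31. S100b, a glial protein, and Tubb3 differed by -1.82 each. Tubb3, a neuronal tubulin, averaged 11.70 in endocrine progenitors. Elavl4 fell by 1.11, a call lost without progenitor replicate 1 or 2 or null replicate 2 or 3. In the gut and stomach list 1 of 9 was higher, Vil1 (1.30), which lost its call without progenitor replicate 3.

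Stress and dissociation genes differed in both directions. The heat shock genes Hspa1a and Hspa1b rose by 4.63 and 2.93, Hspa1a from 3.60, 4.98 and 4.83 to 9.19, 7.80, 9.29 and 10.12. The immediate early genes Nr4a1 (-2.82), Ier2 (-2.05) and Junb (-1.04) and the factor Klf6 (-1.82) were lower. Of the 15 genes measured, 2 were higher and 4 lower. With only the 7 arrays fitted, 7 were lower. Fos, at 13.50, 13.50 and 13.92 against 12.63, 11.41, 12.62 and 12.81, was not called (-1.27 ± 0.75).

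Genes lowered most included Lipg, an endothelial lipase, at 9.11, 9.04 and 9.18 in progenitors and 4.97, 5.40, 5.46 and 4.96 in null cells (-3.91 ± 0.38). Also lower were Cnmd, which encodes chondromodulin (-3.73), Rnd3, a regulator of the actin cytoskeleton (-3.71), Spon1, a matrix protein (-3.68), and Fmo1, a monooxygenase (-3.62). Cnmd and Fmo1 were low in endocrine progenitors as well, at 6.26 and 7.81, and Spon1 at 10.56, while Lipg averaged 10.14 there. Nfib, Dmd and Ccn1 were among the 12 most lowered through a dimmer probe, and by the brightest probe they gave -1.87, -1.63 and -1.83, Ccn1 losing its call when any 1 of the 3 progenitor arrays, or null replicate 2 or 4, was left out. Phgdh, Taok1 and Suz12 were also among the 12 by 1 probe, but their brightest probes gave -0.19, -0.52 and -0.68 and were not called.

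A probe of a gene therefore did not always stand for its other probes. Of 6921 genes with at least 2 tested probes, 1717 had a probe called lower, and 1540 of these had another probe that was not. For raised genes the numbers were 587 of 788. On the control probes at the 3′ and 5′ ends of beta-actin, the 3′ minus 5′ gap was 1.36 ± 0.35 (SD, n = 4) in null cells and 0.53 ± 0.11 (SD, n = 3) in progenitors. For Gapdh it was 1.35 ± 0.34 and 0.80 ± 0.06. Null replicate 2 had the widest gap for both, 1.88 and 1.86. The part of RNA quality in the lowered probes was not tested. Without null replicate 2, 2859 probes were lower in place of 3341. Xist, transcribed from the inactive X chromosome, read 6.49, 3.70 and 3.67 in null replicate 2 at its 3 probes. Every other array of both groups read at least 10.79, 10.14 and 12.45 at the same probes. The cause of this gap was not tested.

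A further set of probes was taken from arrays outside the comparison. Between endocrine progenitors and E11.5 Sox9+ progenitors, 2255 probes were raised and 3033 lowered. Embryonic day and reporter line (Neurog3-eGFP against Sox9-eGFP) differ here together with cell type, and their parts cannot be told apart. Of the raised, 12.9% were higher in null cells than in E15.5 progenitors and 12.9% lower, against 7.63% and 10.4% of all probes tested, with a median of -0.01. Of the lowered, 8.18% were higher and 14.9% lower, with a median of -0.10. Without the leukocyte-following probes the shares were 11.7% and 13.2% of the raised and 7.77% and 14.9% of the lowered.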

How the data were processed

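Amplified RNA of sorted cells was read on Affymetrix mouse arrays, and the authors ran RMA under R 2.11.1. The deposited table of log2 values (45101 probes, 48 arrays) was used unchanged. RMA gives relative levels, no count of molecules, and array number limits the precision. Populations came from the labels. Control probes and those not above 100 (linear) in any array were left out. Differences are from limma 3.58.1 in R 4.3.3, with 13 population means over 48 arrays (35 residual and 3.55 prior degrees of freedom). A call needs an adjusted p (Benjamini-Hochberg) under 0.05 and a 2-fold difference. The methods' t-test was an alternative. The fit was tested on simulated data.

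Gene names came from the platform table, where 34958 probes carry 1 gene, 932 several and 9211 none. Each gene is its brightest probe over 48 arrays. Named genes are the progenitor factors, up to 4 called members per list and the 12 most changed per direction. Further members were named after their values were seen. The members and the 22 lists were chosen with earlier results of these data known.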

Additional observations from a re-analysis of the deposited data

Results flagged for a closer look

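Among 131 groups of 4 null arrays examined (named genes and list means), 5 held 1 array far from the rest by Dixon's ratio, where chance gives about 1 in 20 groups. Foxa3 read 10.88 in null replicate 1 and 10.49 to 10.52 in the others. The mean level of the endothelial list was 7.42 in replicate 4 and 6.23 to 6.35 in the others, and that of the cell cycle exit list 8.32 in replicate 2 against 8.71 to 8.78. The Notch list averaged 9.09 in replicate 2 against 8.98 to 8.99, and the gut and stomach list 5.87 in replicate 1 against 6.17 to 6.20.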

How the results depend on the processing

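Counts of higher and lower probes stayed within 1.5 times under every alternative run. This holds for all probes and for those that differ between endocrine progenitors and E11.5 Sox9+ progenitors. Leaving out 1 array at a time gave 2257 to 2544 higher and 2859 to 3611 lower probes. It gave 272 to 303 higher and 263 to 314 lower among those raised in endocrine progenitors over E11.5 Sox9+ progenitors, and 214 to 281 and 399 to 477 among those lowered. The lower endocrine factors numbered 7 to 9, the lower progenitor factors 4 to 5 and the higher macrophage markers 16 throughout. With a filter of 100 in 3 of the 7 arrays, which tests fewer genes, 5 endocrine factors were lower, and with the median of a gene's probes, an alternative chosen after seeing the data, 4. Without leukocyte-following probes, also chosen then, 1915 probes were higher and 3308 lower, and the mean correlation of the null arrays rose from 0.42 to 0.50 for acinar cells and from 0.40 to 0.50 for progenitors. The methods' t-test with Benjamini-Hochberg adjustment gave 1917 higher and 2865 lower. With the replicate number as a block, 2425 were higher and 3385 lower. Same-numbered arrays had deviations correlated at 0.07, -0.01 and -0.06, and differently numbered arrays at -0.26 to 0.31. These values show no pairing by number. Whether same-numbered arrays shared a day or batch was not tested. Of 88 called named genes, 63 kept the call in every alternative. Some list counts moved more: higher acinar enzymes ran from 0 to 8, higher liver genes from 0 to 8, lower stress genes from 2 to 7, higher mesenchyme genes from 1 to 4, higher endothelial genes from 2 to 6, lower cell division genes from 2 to 6, lower adhesion genes from 1 to 4 and exocytosis genes from 3 to 5 higher and 1 to 3 lower. Higher progenitor factors ran from 0 to 3, higher acinar and tip factors from 0 to 3, higher duct markers from 0 to 2, and hormone and granule genes from 0 to 2 higher and 0 to 3 lower.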
